A study of Drosophila melanogaster with 9 samples.

Results

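RNA from thoraces of female Drosophila melanogaster carrying a hairpin against the retrotransposon roo was compared, gene by gene, with RNA from flies carrying a scrambled hairpin. Every FlyBase gene listed in the table of these libraries was taken, which gave 13906 genes of 14078 features, the others being 166 repeats and 6 low-complexity features. The comparison used 6 of the 9 libraries of the series, leaving aside 3 from flies with a hairpin against the retrotransposon 412, and 10228 genes had enough reads to be tested. RooKD and scramble, as the labels name the groups, were each represented by 3 libraries made from pooled thoraces of females on adult day 20. All flies had the genetic background W1118 (BL5905) and expressed their hairpin in the whole body under the control of the actin promoter (Act5C>shRNA), so that expression of a hairpin was shared by both groups. Whether different pools were grown as separate cultures is not stated in the labels, so a p-value here measures only how pools spread, which may be technical.

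Roo is a retrotransposon with long terminal repeats, which copies itself through an RNA intermediate. A short hairpin RNA enters the small interfering RNA pathway, in which Dicer cuts it and an Argonaute protein uses one strand to find and cut matching transcripts. The female thorax holds mainly flight muscle, together with fat body, cuticle-forming epidermis, nerve cord, blood cells and the front part of the gut.

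The RooKD libraries held between 17590599 and 22361932 reads, and the scramble libraries between 19766129 and 23545619. RooKD replicate 1 stood apart on the leading principal component, which held 38.8% of the variance, at −45 against −12 to 37.8 in the other libraries. It carried transcripts of the ovary: the 36 ovary and eggshell genes summed there to 1120 CPM, which are counts scaled to the size of the library, and to 195 to 219 CPM in the other 5 libraries. The yolk protein receptor gene yl, expressed in oocytes, had 2527 reads in RooKD replicate 1 and 0 to 3 reads elsewhere. RooKD replicate 3 had a median log2 difference from the scramble mean of 1.37 over the 13 protein genes of the mitochondrial genome, against 0.17 and 0.26 in RooKD replicates 1 and 2. Genes of the flight muscle sarcomere summed to 21800 to 25300 CPM in RooKD and to 23400 to 27200 CPM in scramble; 33 of the 34 listed genes were tested. The roo element itself stood at 11, 8.95 and 13.5 CPM in RooKD and at 12.9, 9.66 and 8.22 CPM in scramble. The groups overlapped, and the mean of the libraries labelled RooKD was not lower (11.2 ± 2.29 CPM against 10.3 ± 2.40, SD of 3 libraries; two-sided exact permutation test, p = 0.7, where 0.1 is the smallest that 3 against 3 allow). Each direction below is therefore one between the libraries labelled RooKD and scramble, and within these 6 libraries a gene lower in RooKD cannot be told apart from one higher in scramble. The 412KD libraries were not used here to place such genes.

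Most genes differed little. The median log2 fold change over the 10228 genes tested was 0.02, the median size of a change was 0.19 in either direction, and 442 genes differed by more than 1 log2 unit. Scaling by library totals in place of TMM, which balances libraries on the bulk of their genes, moved the median of all genes to −0.11, and list medians from 0.00 to 0.08 given below then fell under 0. edgeR's quasi-likelihood test, at a Benjamini-Hochberg adjusted p under 0.05, called 10 genes, or 0.0978% of those tested. Of these, 4 rose in RooKD (0.0391%) and 6 fell (0.0587%). DESeq2, run on the same counts, called 343 of 10076 genes (3.40%), with 234 higher in RooKD (2.32%) and 109 lower (1.08%). All 10 genes of edgeR were among them. At an unadjusted p under 0.05, edgeR had 760 higher genes (7.43%) and 534 lower genes (5.22%). The words rose and fell are kept here for the 10 genes of edgeR, and the genes called by DESeq2 alone are given as higher or lower. Leaving out scramble replicate 2 left edgeR with 0 called genes and DESeq2 with 95 higher and 37 lower genes, while 746 features had an unadjusted edgeR p under 0.05. Without scramble replicate 1, edgeR called 3 genes and DESeq2 76 higher and 30 lower. Without RooKD replicate 1, the library with ovary transcripts, edgeR called 42 genes, 27 higher and 15 lower, and all 10 genes were among them. Of the 6 edgeR fits with 1 library left out, that was the only one to call Gba1b, Kmn1 or CG14431. Ldsdh1 and Hr51 were called in 2 of these fits and CG14823 in 3. Ork1 and CG42846 were called in 4, and PH4alphaSG2 and Reepl1 in 5. Without RooKD replicate 3 it called 6 genes, and without scramble replicate 3 it called 17.

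**Figure D1:**
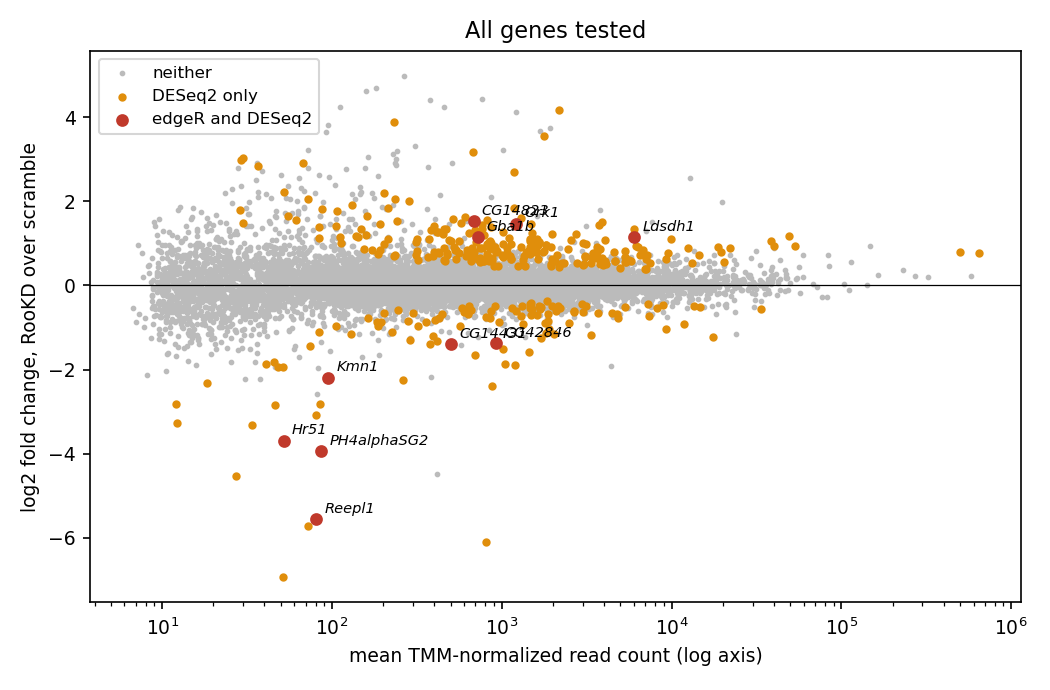
Log2 fold change of RooKD over scramble (vertical axis) against the mean TMM-normalized read count (horizontal log axis) for the 10228 genes tested. Red points are the 10 genes called by edgeR and DESeq2, orange points the other genes called by DESeq2 and grey points the rest. Reepl1, with no read in RooKD, is drawn at −5.55, and its fall was at least that large. The called genes that fell reach larger changes than the 4 that rose, which lie between 1.14 and 1.52.

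Among the genes that fell, Reepl1 had no read in any RooKD library. Its name places it among the REEP proteins, which shape the endoplasmic reticulum. Reepl1 (FBgn0030313, X:11572707-11573640, plus strand, dm6) had 0, 0 and 0 normalized reads in RooKD against 178, 147 and 159 in scramble. Set against 3 reads per library as the floor, Reepl1 was at least 47-fold lower in RooKD (edgeR adjusted p = 0.00513). Its level in scramble was modest, at 8.42 FPKM, the authors' length-scaled unit. The related genes ReepA and ReepB were expressed in both groups, with log2 fold changes of −0.23 ± 0.10 and 0.08 ± 0.12 (SE), and neither was called by edgeR (adjusted p = 0.421 and 0.813).

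Kmn1, which encodes a component of the kinetochore complex that holds chromosomes to the spindle, lies 264 bases from Reepl1 on the opposite strand. Kmn1 (X:11571383-11572442) had 33.4, 25.4 and 43.7 normalized reads in RooKD and 153, 183 and 130 in scramble. Every RooKD library was below every scramble library, and Kmn1 fell by 2.19 ± 0.27 on the log2 scale (edgeR adjusted p = 0.0427). The next gene on its other side, CG11699 (X:11570621-11571718), overlaps Kmn1 by 336 bases on the opposite strand. CG11699 had 1.91, 4.41 and 0 normalized reads in RooKD and 49.2, 63.3 and 45.4 in scramble. These values gave a log2 fold change of −4.52 ± 0.63, short of the threshold in edgeR (adjusted p = 0.0538) and past it in DESeq2 (adjusted p = 6.15e-07). No source used here says whether reads were counted by strand, so reads in the shared 336 bases cannot be told apart between these genes. CG11696, which begins 90 bases beyond Reepl1, stood at −0.46 ± 0.19 on the log2 scale (edgeR adjusted p = 0.363). DESeq2 called 3 genes in a row as lower on the X chromosome, CG11699, Kmn1 and Reepl1. The next 3 genes beyond Reepl1, with log2 fold changes from −0.51 to −0.35, also had groups that did not overlap, but neither test called them. Groups without overlap and with RooKD lower were found in 9.01% of all genes tested. The gene after these, nod, was at 0.92 ± 0.57 with groups that overlapped.

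PH4alphaSG2 encodes a catalytic subunit of prolyl 4-hydroxylase, the enzyme that hydroxylates proline in collagen, and is named for the salivary gland. PH4alphaSG2 (3R:30490074-30491987) had 13.4, 9.93 and 7.71 normalized reads in RooKD and 189, 141 and 157 in scramble. It fell by 3.94 ± 0.29 on the log2 scale (edgeR adjusted p = 0.00513), from 4.71 to 0.301 FPKM. Of the 6 members of the prolyl hydroxylase list that were tested, 5 had values below 0 and the median was −0.29, beside 0.02 for all genes. PH4alphaEFB, the widely expressed member, had 1258, 1062 and 953 normalized reads in RooKD and 1486, 1553 and 1608 in scramble. The groups of PH4alphaEFB did not overlap, and it was lower by DESeq2 (log2 fold change −0.50 ± 0.13, DESeq2 adjusted p = 0.0463; edgeR adjusted p = 0.212). PH4alphaMP, which overlaps PH4alphaSG2 by 175 bases on the other strand, had 18.8 to 27.7 normalized reads in RooKD and 12.8 to 14.2 in scramble (0.76 ± 0.35, edgeR adjusted p = 0.417). Jon99Fi, a serine protease gene 178 bases from PH4alphaSG2, varied by library and not by group, with 5474, 3.31 and 1.28 normalized reads in RooKD and 276, 5.93 and 304 in scramble. The salivary gland markers as a whole were low, with the 11 listed genes summing to at most 259 CPM in a RooKD library and 238 CPM in a scramble library.

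Hr51 encodes a nuclear receptor needed for the wiring of mushroom body neurons. Hr51 (2R:15331325-15339384) had 6.69, 7.72 and 7.71 normalized reads in RooKD and 63.4, 76.1 and 149 in scramble. The RooKD libraries lay close together, and Hr51 fell by 3.69 ± 0.43 on the log2 scale (edgeR adjusted p = 0.0332). Both neighbours moved with it. The gene unc-5, a netrin receptor of axon guidance that starts 1087 bases away, had 416, 572 and 592 normalized reads in RooKD and 1214, 1106 and 2183 in scramble. It was lower by DESeq2 (−1.51 ± 0.29, DESeq2 adjusted p = 1.89e-05; edgeR adjusted p = 0.122). CG8160, 3053 bases away on the other side, had 0.955, 5.52 and 0 normalized reads in RooKD and 17.5, 10.9 and 38.8 in scramble, with DESeq2 adjusted p = 0.0442 (0.099 without RooKD replicate 1) and edgeR adjusted p = 0.216. In scramble, replicate 3 was the highest library for all 3 genes. Of the 18 nuclear receptor genes tested, Hr51 alone was called by edgeR or DESeq2, and the median of the list was 0.01.

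CG42846 (3L:230971-231604) was the most abundant gene that fell, at 115 FPKM in scramble and 44.7 FPKM in RooKD. Its normalized reads were 521, 553 and 470 in RooKD and 1396, 1304 and 1292 in scramble, and CG42846 fell by 1.37 ± 0.11 on the log2 scale (edgeR adjusted p = 0.00603). CG34454, 76 bases away on the same strand, had 259, 190 and 272 normalized reads in RooKD and 683, 562 and 405 in scramble. It was lower by DESeq2 (−1.20 ± 0.22, DESeq2 adjusted p = 0.00026; edgeR adjusted p = 0.111). CG14431 (X:6908277-6968829) had 247, 285 and 299 normalized reads in RooKD and 630, 901 and 648 in scramble. Its groups were well separated, and CG14431 fell by 1.39 ± 0.17 on the log2 scale (edgeR adjusted p = 0.0427). CG32732, now named Setd3, lies inside CG14431 on the opposite strand and differed by 0.09 ± 0.15 on the log2 scale (adjusted p = 0.835 in edgeR).

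The 4 genes that rose were expressed well in both groups. Ork1 encodes a potassium leak channel that sets the resting potential of excitable cells. Ork1 (X:10878054-10891250) had 1570, 2057 and 1745 normalized reads in RooKD and 614, 633 and 691 in scramble. Its lowest RooKD library was more than 2-fold above its highest scramble library, and Ork1 rose by 1.47 ± 0.13 on the log2 scale (edgeR adjusted p = 0.00886). Of the 31 neuronal genes tested, 25 had values above 0, beside 5418 of all 10228 genes, with a median of 0.17. With library totals the median was 0.03. The list medians of the libraries overlapped between groups, at −0.04, 0.27 and 0.35 in RooKD and −0.16, 0.11 and 0.04 in scramble. Ork1 was the only one of the 31 genes called by edgeR or DESeq2. Among the others, the synaptic vesicle regulator cpx had 4985, 6213 and 8669 normalized reads in RooKD and 3464, 4334 and 5021 in scramble, groups that overlapped slightly (0.63 ± 0.23, edgeR adjusted p = 0.310).

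CG14823 carries a destabilase domain, found in invertebrate lysozymes. CG14823 (3L:7066314-7069463) had 1196, 809 and 1031 normalized reads in RooKD and 335, 340 and 381 in scramble, and rose by 1.52 ± 0.16 on the log2 scale (edgeR adjusted p = 0.0262). It lies wholly inside CG8641, a gene on the opposite strand with 39.5 to 62.4 normalized reads in the 6 libraries whose log2 difference was −0.00 ± 0.29 (adjusted p = 0.998 in edgeR).

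Ldsdh1 encodes a dehydrogenase of the surface of lipid droplets and was the most abundant called gene, at 290 FPKM in RooKD and 130 FPKM in scramble. Ldsdh1 (X:8078350-8081605) had 8215, 7984 and 8782 normalized reads in RooKD and 3543, 3421 and 4269 in scramble. The libraries of each group lay close together, and Ldsdh1 rose by 1.15 ± 0.13 on the log2 scale (edgeR adjusted p = 0.0306).

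Gba1b encodes the glucocerebrosidase that breaks down glucosylceramide in lysosomes of the fly's brain and other tissues. Gba1b (3R:23704804-23708512) had 880, 1006 and 1090 normalized reads in RooKD and 417, 448 and 487 in scramble, and rose by 1.14 ± 0.13 on the log2 scale (edgeR adjusted p = 0.0306). Its neighbour and paralog Gba1a, known for its expression in the midgut, varied within both groups, with 1426, 145 and 331 normalized reads in RooKD and 1191, 1044 and 119 in scramble. Gba1a had a log2 fold change of −0.30 ± 1.19, and reads of paralogs can be split wrongly between them.

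**Figure D2:**
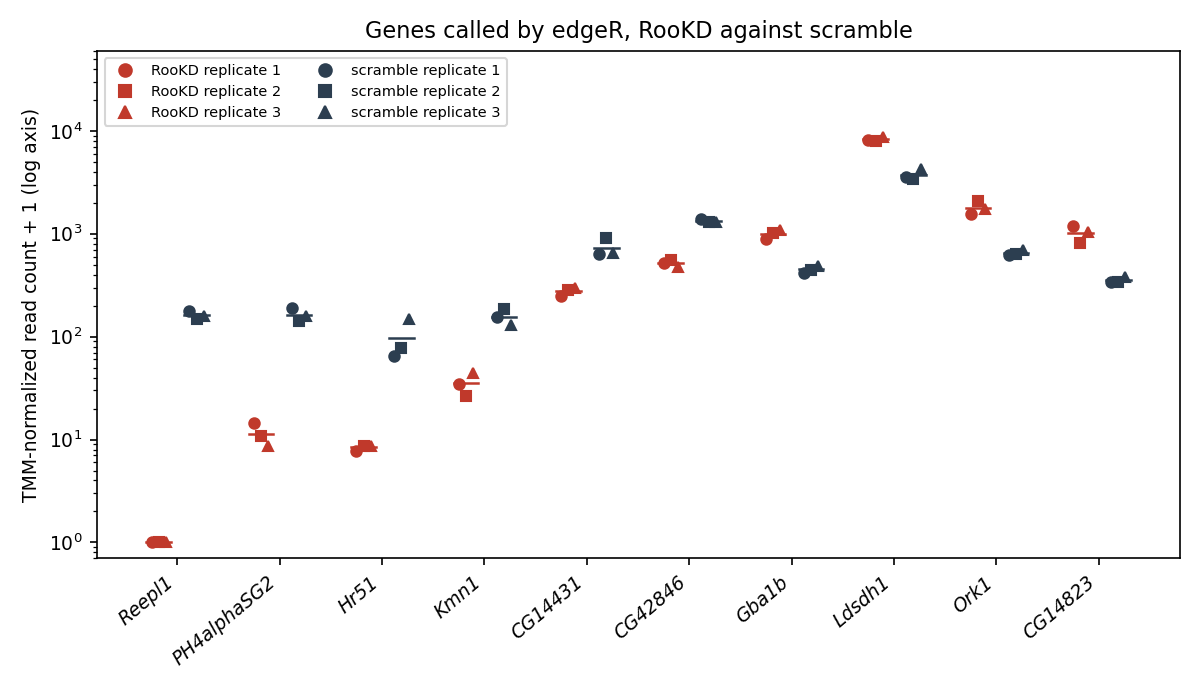
TMM-normalized read count plus 1 on a log axis for the 10 genes called by edgeR, with RooKD in red and scramble in blue, symbols for the replicates and lines for the group means. In every gene the 3 RooKD libraries lie wholly above or wholly below the 3 scramble libraries, and Reepl1 is at 0 reads in all 3 RooKD libraries.

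At some places on the chromosomes a gene next to the called one was called as well. Around Ork1, Ldsdh1, Gba1b, CG14823 and CG14431, the tested genes directly next to them had log2 fold changes between −0.30 and 0.09. Beside Hr51, CG42846, Kmn1 and Reepl1 at least one direct neighbour was also called in the same direction by edgeR or DESeq2. The direct neighbours of PH4alphaSG2 had values of the opposite sign, 3.22 ± 2.76 for Jon99Fi and 0.76 ± 0.35 for PH4alphaMP, and were not called. Jon99Fi stood at −6.31 without RooKD replicate 1. Over all 10 called genes, 10 of 20 direct neighbours had the sign of the called gene. Across the genome, 10219 pairs of tested genes stood next to each other, and in 27 pairs DESeq2 called both genes. In 25 of these pairs both genes had the same direction, 15 higher and 10 lower. Of the 340 DESeq2-called genes that edgeR also tested, 46 were in such a pair. Several pairs were members of one family, among them the Jonah proteases Jon99Ciii, Jon99Cii and Jon99Ci, the aminopeptidases CG8773 and CG8774 and the serpins Spn88Ea and Spn88Eb. Others were the sorbitol dehydrogenase gene Sodh-1 with CG1979, and Bin1, a partner of the Sin3 deacetylase complex, with the calcineurin regulator sra, whose gene bodies overlap. In the P450 pair Cyp6g1 and Cyp6g2 the neighbours went in opposite directions. Cyp6g1, known for insecticide resistance, was higher in RooKD (0.80 ± 0.19, DESeq2 adjusted p = 0.00786), and Cyp6g2 was lower (−1.58 ± 0.29, DESeq2 adjusted p = 4.21e-06).

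**Figure D3:**
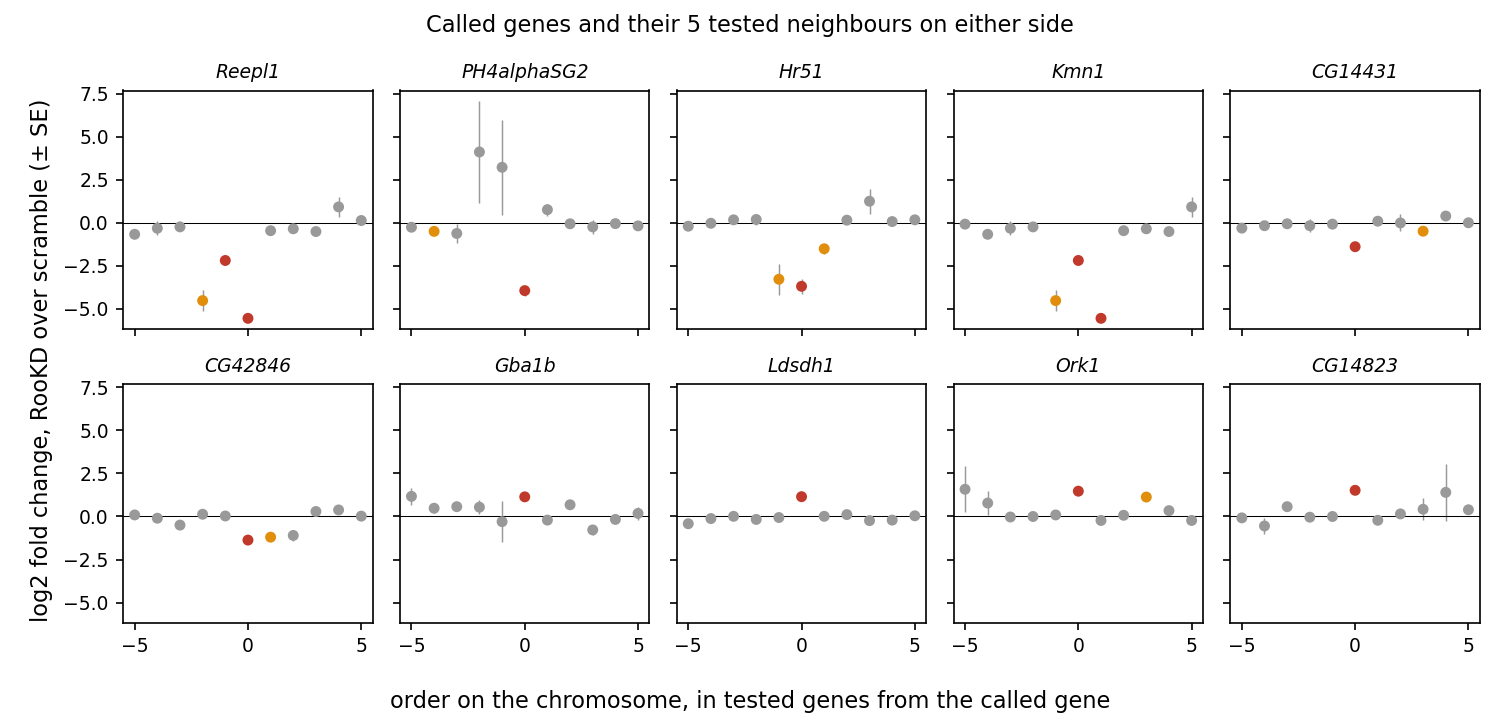
Log2 fold change of RooKD over scramble, with standard errors, for each of the 10 edgeR-called genes (position 0) and the 5 tested genes on either side in chromosome order; red marks genes called by edgeR, orange those called by DESeq2 alone and grey the rest. Calls extend over 3 genes around Kmn1 and Reepl1 and also reach the neighbours of Hr51, while Ldsdh1 and Gba1b stand alone. Reepl1 is drawn at −5.55 without an error bar, and its fall was at least that large.

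The genes called by DESeq2 alone include larger changes with more spread between libraries. Of its 343 genes, 333 had groups that did not overlap, a pattern found in 18.7% of all genes tested, and 238 were also called by DESeq2 without RooKD replicate 1, 152 higher and 86 lower. None of the 343 changed sign without that library. The lower genes with the largest changes included Gr43a, the receptor with which the fly senses fructose. Gr43a had 8.60, 47.5 and 14.1 normalized reads in RooKD and 1356, 2536 and 872 in scramble (−6.09 ± 0.75, DESeq2 adjusted p = 6.3e-11; edgeR adjusted p = 0.0763). The lowest scramble library was thus far above the highest RooKD library. MCO3, a multicopper oxidase gene, had 2 reads in all of RooKD and an uneven 174, 103 and 34 normalized reads in scramble (DESeq2 adjusted p = 7.3e-07, edgeR adjusted p = 0.068). Pooled and scaled to library size, its reads were 159-fold lower in RooKD than in scramble (95% counting interval 43.6 to 1320).

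The noncoding gene lncRNA:CR45662 had 2.87, 1.10 and 3.85 normalized reads in RooKD and 254, 119 and 54.8 in scramble (−5.73 ± 0.74, DESeq2 adjusted p = 5.88e-11). CG6356, 586 bases away, had 588, 436 and 488 in RooKD and 3240, 1483 and 917 in scramble, and was lower too (−1.90 ± 0.47, DESeq2 adjusted p = 8.34e-05, or 0.0673 without RooKD replicate 1). In both genes the scramble libraries stood in the same order, with replicate 1 highest and replicate 3 lowest. Bin1 had 420, 394 and 539 normalized reads in RooKD and 1601, 1131 and 2196 in scramble, and missed the threshold of edgeR by little (−1.86 ± 0.25, edgeR adjusted p = 0.0538; DESeq2 adjusted p = 4.59e-10).

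**Figure D4:**
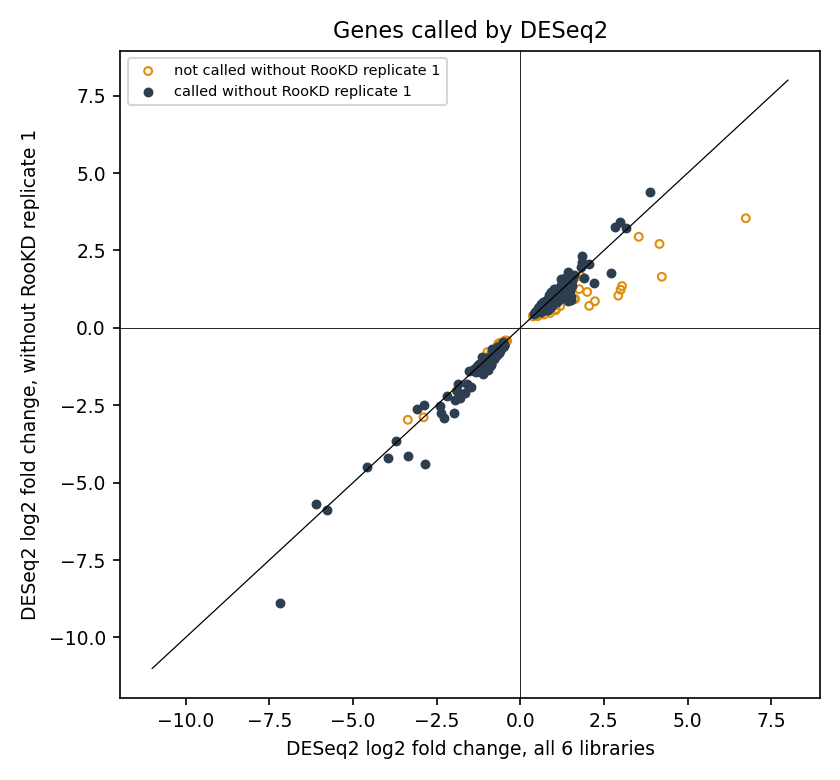
DESeq2 log2 fold change without RooKD replicate 1 (vertical axis) against that with all 6 libraries (horizontal axis) for the genes called by DESeq2, apart from Reepl1, which has no RooKD read; filled points are also called without that library, and the diagonal marks equal values. Open points well below the diagonal on the right are higher genes whose value shrank when RooKD replicate 1 was left out.

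Digestive enzymes made up several of the largest higher values. Jonah proteases are serine proteases secreted into the gut. Jon99Ciii had 9257, 2036 and 971 normalized reads in RooKD and 289, 17.8 and 378 in scramble (4.16 ± 1.43, DESeq2 adjusted p = 0.0463), and Jon99Cii had 5509, 2956 and 1348 against 365, 50.4 and 423 (3.54 ± 0.96, DESeq2 adjusted p = 0.0109). Both were no longer called without RooKD replicate 1 (DESeq2 adjusted p = 0.298 and 0.0997). Jon99Ci, beside them, was even across RooKD, with 374, 371 and 387 normalized reads against 169, 54.4 and 47.3 in scramble (2.05 ± 0.48, DESeq2 adjusted p = 0.000204). The aminopeptidase CG8773 had 1126, 644 and 1883 normalized reads in RooKD and 128, 101 and 180 in scramble (3.16 ± 0.44, DESeq2 adjusted p = 5.54e-15; edgeR adjusted p = 0.0763). CG17192, a gene with a lipase domain, had 69.7, 616 and 623 against 25.9, 5.93 and 55.8 (3.89 ± 1.12, DESeq2 adjusted p = 0.0238).

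Of 42 tested genes for secreted digestive enzymes of the midgut, 35 had values above 0, and their median was 0.72, or 0.29 without RooKD replicate 1. edgeR called none of the 42, with 10 higher and 1 lower at an unadjusted p under 0.05, and DESeq2 called 6 higher and 1 lower. Without RooKD replicate 1, 26 of the 42 had values above 0 and DESeq2 called 8 higher and 4 lower. The lower one with all libraries was the lysozyme gene LysP, with 9432, 13493 and 8449 normalized reads in RooKD and 21943, 25287 and 26415 in scramble (−1.23 ± 0.20, DESeq2 adjusted p = 4.82e-07). The summed level of the list overlapped between the groups, at 19700, 22800 and 22700 CPM in RooKD and 19900, 15600 and 19600 CPM in scramble. In bulk RNA, more cells of a type and more RNA per cell cannot be told apart, and the amount of gut in each pool was not tested.

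Protein domains annotated in the deposited table gave further families, picked once their values were known. Only families with at least 4 DESeq2-called genes were listed, so a number of calls was a condition of being listed. Over all genes, DESeq2 called 2.32% higher and 1.08% lower, and 5418 of the 10228 tested had values above 0. The M13 peptidases, relatives of neprilysin that cut small peptides outside cells, numbered 25, of which 22 had values above 0 and 6 were higher and none lower by DESeq2, or 5 higher and 1 lower without RooKD replicate 1. Among them CG42370, now Nepl6, had 2461, 2065 and 2273 normalized reads in RooKD and 1216, 1010 and 1617 in scramble (0.82 ± 0.18, DESeq2 adjusted p = 0.00447). Of 20 tested M1 aminopeptidases, 4 were higher by DESeq2 and none lower, or 3 higher and 1 lower without RooKD replicate 1. All 4, CG8773, CG8774, CG31233 and CG31198, lie in 2 neighbouring pairs on chromosome arm 3R. CG31233 was highest in RooKD replicate 1, with 3984, 660 and 1505 normalized reads in RooKD and 290, 341 and 316 in scramble (2.70 ± 0.68, DESeq2 adjusted p = 0.00841), and was called without that library too (DESeq2 adjusted p = 1.06e-05). CG8774 was not: it had 295, 21 and 44.9 against 17.5, 14.8 and 15.1, and its log2 fold change went from 2.92 to 1.02 without RooKD replicate 1 (DESeq2 adjusted p = 0.4). Of 151 trypsin-domain genes, 13 were higher and 6 lower by DESeq2, or 14 higher and 12 lower without RooKD replicate 1.

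Genes of lipid synthesis had a higher list median in each RooKD library than in any scramble library. Fatty acids are built from acetyl-CoA by acetyl-CoA carboxylase and fatty acid synthase, and are then desaturated or elongated. Of 19 tested genes of fatty acid synthesis and its NADPH supply, 13 had values above 0, with a median of 0.19, and 7 had groups that did not overlap with RooKD higher, beside 9.71% of all genes tested. The list medians of the libraries were 0.22, 0.22 and 0.26 in RooKD and −0.07, −0.02 and 0.12 in scramble. edgeR called none of the 19, with 7 higher and 0 lower at an unadjusted p under 0.05, and DESeq2 called 4, all higher. Fatty acid synthase, FASN1, had 44323, 57998 and 55293 normalized reads in RooKD and 26368, 29138 and 26476 in scramble (0.94 ± 0.16, DESeq2 adjusted p = 1.53e-07; edgeR adjusted p = 0.0954). The desaturase gene Desat1 had 60603, 66618 and 82772 against 34641, 33818 and 41412 (0.93 ± 0.18, DESeq2 adjusted p = 1.21e-05). Acetyl-CoA carboxylase, ACC, had a smaller difference of 0.56 ± 0.14 (DESeq2 adjusted p = 0.00436), as did acetyl-CoA synthetase, AcCoAS, at 0.52 ± 0.14 (DESeq2 adjusted p = 0.0195, or 0.0729 without RooKD replicate 1).

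The elongases of the GNS1/SUR4 family, which lengthen fatty acids, were also listed because of their DESeq2 calls. They had 13 of 16 tested members above 0, and 5 were higher by DESeq2, beside 2.32% of all genes. In all 5 the highest value was that of RooKD replicate 1. CG30008 had 1158, 664 and 738 normalized reads in RooKD and 253, 212 and 444 in scramble (1.49 ± 0.33, DESeq2 adjusted p = 0.000378). Without RooKD replicate 1, CG30008 and CG9458 were still called by DESeq2 (adjusted p = 0.00867 and 0.0266), and CG6660, CG16904 and CG18609 were not (adjusted p = 0.0606, 0.099 and 0.238). Cyp4g1, the P450 enzyme of the oenocytes that makes cuticular hydrocarbons from very long fatty aldehydes, had 90459, 53713 and 61282 normalized reads in RooKD and 32842, 23787 and 33897 in scramble (1.18 ± 0.24, DESeq2 adjusted p = 8.46e-05; edgeR adjusted p = 0.135). Among all 75 P450 genes tested, 48 had values above 0, and the median was 0.19. DESeq2 called 10 higher and 2 lower, beside 2.32% and 1.08% of all genes. Without RooKD replicate 1 it called 7 higher and 5 lower. The lowest was Cyp4p2, with 4.78, 30.9 and 15.4 normalized reads in RooKD and 157, 150 and 124 in scramble (−3.08 ± 0.54, DESeq2 adjusted p = 2.97e-07).

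Beside Ldsdh1, the list of lipid storage and breakdown had 1 further gene called by DESeq2, the peroxisomal acyl-CoA oxidase Acox57D-d, with 651, 638 and 821 normalized reads in RooKD and 395, 387 and 452 in scramble (0.77 ± 0.14, DESeq2 adjusted p = 0.0018). Of the 22 genes of that list, 13 had values above 0. Of the 22 lysosomal genes tested, 14 did, and beside Gba1b only Npc2g, a member of the Niemann-Pick type C2 family, was called by DESeq2 (0.82 ± 0.23, adjusted p = 0.025, or 0.0522 without RooKD replicate 1). Without that library the median of the lysosomal list was 0.01, beside 0.08 with it.

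The summed level of fat body genes was higher in each RooKD library than in any scramble library. The 18 listed fat body genes, which include FASN1 and Desat1 of the list above, summed to 87300, 96700 and 89500 CPM in RooKD and to 54000, 50400 and 75000 CPM in scramble. Such a sum follows its most abundant members, among them the yolk protein gene Yp2. By gene, 13 of the 18 had values above 0 and 5 below, with a median log2 fold change of 0.31. DESeq2 called 5 higher and none lower, and edgeR called none, with 7 higher and 0 lower at an unadjusted p under 0.05. Yolk proteins, made by the fat body and the ovary, were among the most abundant transcripts. Yp2 had 634256, 661499 and 610290 normalized reads in RooKD and 313303, 295420 and 487626 in scramble (0.80 ± 0.25, DESeq2 adjusted p = 0.00995). Yp3 was higher by a like amount (0.78 ± 0.26, DESeq2 adjusted p = 0.0168), while the groups of Yp1 overlapped (0.24 ± 0.27, DESeq2 adjusted p = 0.773). RooKD replicate 1, the library with ovary transcripts, was not the highest RooKD library for Yp2 or Yp3. The order of the libraries cannot separate yolk protein reads of the ovary from those of the fat body. The share of each tissue in the pools was not tested.

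Nearly all proteasome genes had values below 0. The proteasome is the protease complex that degrades ubiquitin-tagged proteins. Of its 33 tested subunits, 32 had values below 0, with a median of −0.41, and 12 had groups that did not overlap with RooKD lower, beside 9.01% of all genes tested. edgeR called none of the 33, with 0 higher and 17 lower at an unadjusted p under 0.05, and DESeq2 called 2 lower. Without RooKD replicate 1, all 33 were below 0, with a median of −0.55, and DESeq2 called 7 lower. Prosalpha4, a subunit of the outer ring of the core, had 1755, 1398 and 1131 normalized reads in RooKD and 2345, 2606 and 1960 in scramble (−0.69 ± 0.18, DESeq2 adjusted p = 0.0297). The ATPase subunit Rpt3 had 2834, 2447 and 2512 against 3894, 4021 and 3116 (−0.50 ± 0.13, DESeq2 adjusted p = 0.0423). The list medians of the libraries overlapped between groups, at −0.17, −0.42 and −0.65 in RooKD and 0.09, 0.13 and −0.21 in scramble. Proteasome subunits are often regulated together, so their shared direction is not 33 separate observations.

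Chaperone and autophagy genes had values mostly below 0. Of 21 heat shock and chaperone genes, 15 were below 0, the median was −0.16, and DESeq2 called 3 lower, the small heat shock protein Hsp23 and the co-chaperones stv and DnaJ-1. Without RooKD replicate 1, the median was −0.48 and DESeq2 called 6 lower, with DnaJ-1 at an adjusted p of 0.0621. Hsp23 had 801, 607 and 645 normalized reads in RooKD and 1071, 987 and 1071 in scramble (−0.61 ± 0.14, DESeq2 adjusted p = 0.0149). Of 22 autophagy genes, 17 were below 0, with a small median of −0.10. The one called by DESeq2, ref(2)P, encodes the fly's p62 cargo receptor and had 12088, 11510 and 13033 normalized reads in RooKD and 19582, 17316 and 15170 in scramble (−0.51 ± 0.14, adjusted p = 0.0208, or 0.0588 without RooKD replicate 1). edgeR called none in either list, with 3 lower heat shock genes and 1 lower autophagy gene at an unadjusted p under 0.05.

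Immune genes had values in both directions, most of the antimicrobial peptide genes below 0. Of 34 antimicrobial peptide genes, 23 had values below 0, with a median of −0.21, and DESeq2 called 1 higher and 3 lower. edgeR called none, with 2 higher and 8 lower at an unadjusted p under 0.05. Without RooKD replicate 1, the median was −0.51 and DESeq2 called 1 higher and 6 lower. The higher gene with all libraries was AttA (DESeq2 log2 fold change 1.85, adjusted p = 0.0237). Without RooKD replicate 1 its value was 2.33 (DESeq2 adjusted p = 2.65e-12). Drsl5, a drosomycin-like gene, had 333, 310 and 198 normalized reads in RooKD and 1473, 852 and 2102 in scramble (−2.39 ± 0.36, DESeq2 adjusted p = 1.75e-10; edgeR adjusted p = 0.0776). The antibacterial diptericin gene DptB had 8274, 9534 and 6769 against 18922, 13388 and 14143 (−0.92 ± 0.19, DESeq2 adjusted p = 0.000416). In contrast, the stress gene TotX had 280, 131 and 209 in RooKD and 74.3, 58.3 and 32.1 in scramble (1.91 ± 0.38, DESeq2 adjusted p = 0.000145). TotX did not stand for its list of Turandot and JAK-STAT genes, of which 5 of 10 tested had values above 0. At an unadjusted edgeR p under 0.05, 1 gene of that list was higher and 3 were lower. The median of that list was 0.03, or −0.32 without RooKD replicate 1. The peptidoglycan-degrading PGRP-SC2 had 6425, 3666 and 4049 against 3173, 2453 and 1945 (0.90 ± 0.26, DESeq2 adjusted p = 0.0224, or 0.109 without RooKD replicate 1). The 20 blood cell genes had 17 values below 0 and a median of −0.31, which was −0.17 without RooKD replicate 1, and neither test called one, with 0 higher and 4 lower by edgeR at an unadjusted p under 0.05. Their summed level was 3750, 4800 and 4430 CPM in RooKD and 5700, 5000 and 7030 CPM in scramble, and its part in the immune values was not tested.

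Genes of flight muscle, the main tissue, had a median close to the 0.02 of all genes. Of 33 sarcomere genes tested, 21 had values above 0, with a median of 0.07 (0.14 without RooKD replicate 1), and edgeR called none, with 0 higher and 2 lower at an unadjusted p under 0.05. DESeq2 called 2 of the 33 as lower, both actin genes, beside 1.08% of all genes. Act88F, the actin of the flight muscle, had 6550, 4585 and 5638 normalized reads in RooKD and 9183, 7143 and 11250 in scramble (−0.72 ± 0.20, DESeq2 adjusted p = 0.030). Act57B had 28745, 24680 and 28279 against 36488, 35248 and 49519 (−0.57 ± 0.18, DESeq2 adjusted p = 0.0421, or 0.0548 without RooKD replicate 1). Actin genes are close paralogs, and reads can be split wrongly between them. Of 66 nuclear genes of the respiratory chain, 40 had values above 0 with a median of 0.07, and of 85 cytosolic ribosomal genes 47 did, with a median of 0.04. The 13 mitochondrial genes all had values above 0, with a median of 0.65, and neither test called one, with 0 at an unadjusted edgeR p under 0.05.

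Among genes of amino acid and growth pathways, v, which encodes the tryptophan dioxygenase of the eye pigment pathway, had 1216, 1882 and 1458 normalized reads in RooKD and 564, 683 and 834 in scramble (1.13 ± 0.20, DESeq2 adjusted p = 9.48e-05; edgeR adjusted p = 0.0989). The gene v lies 32721 bases from Ork1 on the X. It is also used as a marker on transgenes in flies, and no source used here says whether the hairpin constructs carried it. ImpL2, a secreted binding protein of insulin-like peptides, had 2868, 3002 and 2662 against 5284, 4698 and 3525 (−0.66 ± 0.16, DESeq2 adjusted p = 0.0122). Of the 25 insulin and TOR genes tested, ImpL2 was the only one called by DESeq2, and the median was −0.05.

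Genes that act on transposons and hairpins showed no call, where edgeR called 0.0978% and DESeq2 3.40% of all genes. At those shares, lists this short would hold few calls or none. Of 11 genes of the small interfering RNA and microRNA machinery, 8 had values above 0, with a median of 0.07, and neither test called one, with 0 higher and 1 lower by edgeR at an unadjusted p under 0.05. Dcr-2, the Dicer of the small interfering RNA pathway, had 1870, 1807 and 1910 normalized reads in RooKD and 1750, 1645 and 1547 in scramble (0.18 ± 0.10, edgeR adjusted p = 0.503). The 26 piRNA pathway genes, whose products silence transposons mainly in the germline, had a median of 0.21, which was −0.32 without RooKD replicate 1, and neither test called one, with 0 higher and 1 lower by edgeR at an unadjusted p under 0.05. Their library medians were 0.73, −0.32 and −0.12 in RooKD and −0.03, 0.10 and −0.08 in scramble, and only the library with ovary transcripts, RooKD replicate 1, was above every scramble library. For piwi, the reads were 267, 19.9 and 38.5 in RooKD and 17.5, 31.6 and 17.0 in scramble after normalization (2.31 ± 1.0, edgeR adjusted p = 0.414; DESeq2 adjusted p = 0.0763). The kinetochore list behaved alike, with a median of 0.56 that became −0.41 without that library, while Kmn1 stayed at −2.19.

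**Figure D5:**
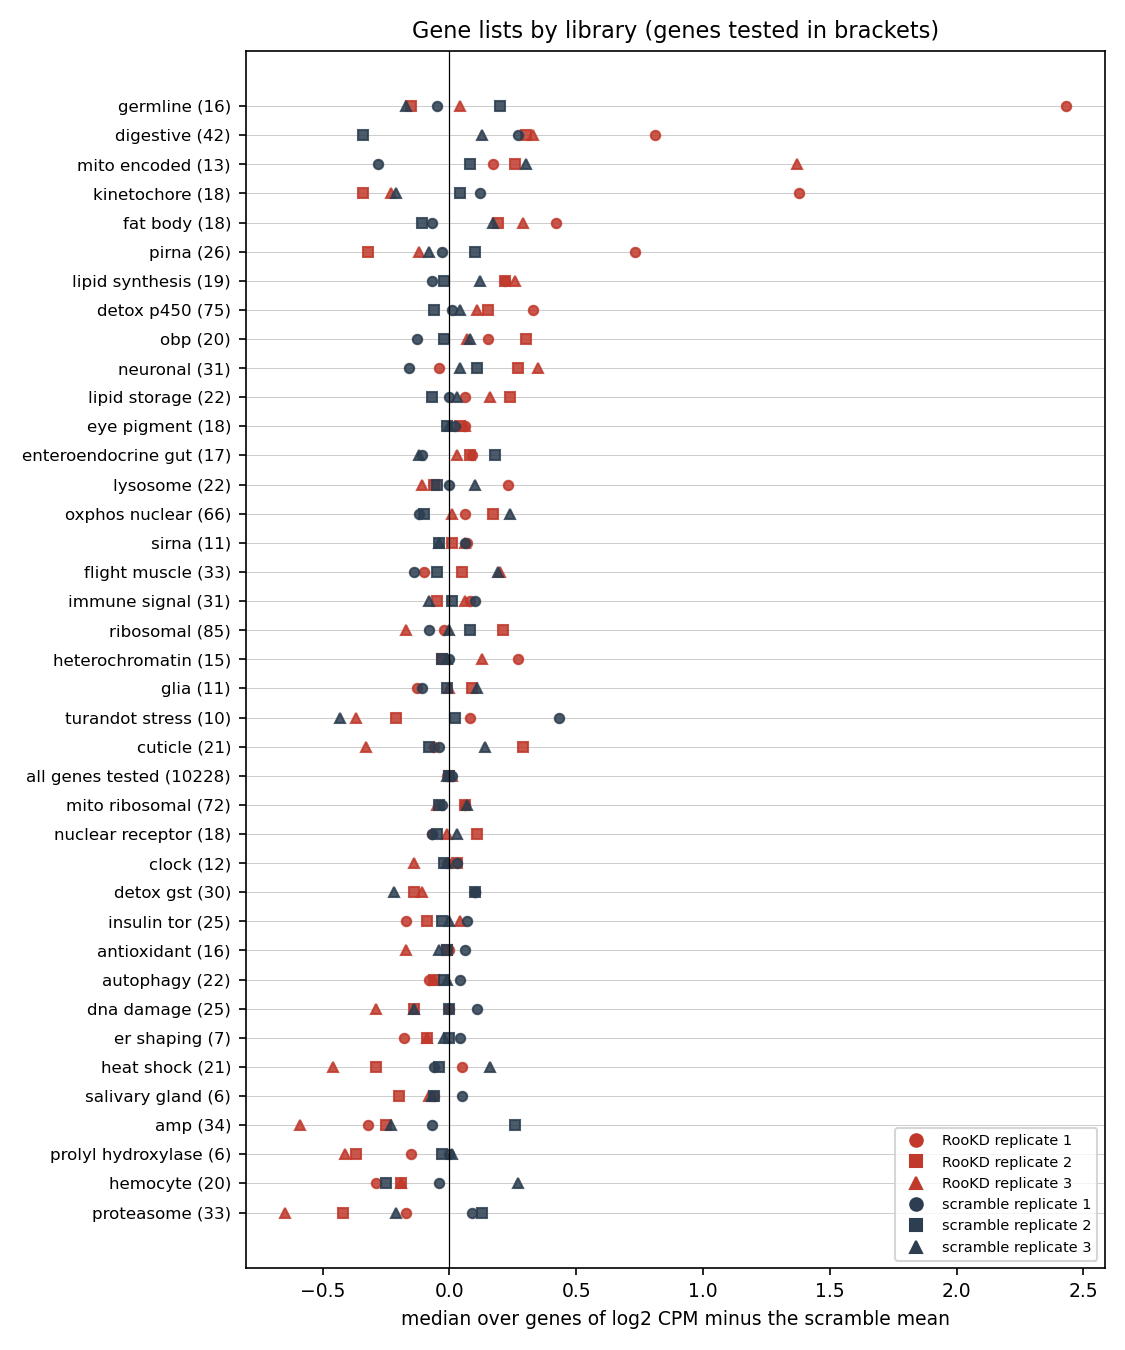
Median over the genes of each list of the log2 CPM minus the scramble mean (horizontal axis), for every library, with RooKD in red, scramble in blue and a symbol for each replicate; lists are ordered by their log2 fold change. RooKD replicate 1 stands alone at 2.43 for the germline and RooKD replicate 3 at 1.37 for the mitochondrial genes, while the lipid synthesis medians of the 3 RooKD libraries lie between 0.22 and 0.26.

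The tested genes that DESeq2 called lay on the X and the 4 large autosome arms, with 0 on chromosome 4 and 0 on the mitochondrial genome. DESeq2 called 2.65% of the tested genes on the X and between 3.18% and 3.92% on the 4 large autosome arms. Of the 10 edgeR-called genes, 5 were on the X, which held 1658 of the 10228 genes tested, and 0 were on 2L. Kmn1 and Reepl1 on the X are direct neighbours. On the small chromosome 4, 80 of 91 genes had values above 0, with a median of 0.21, and the median of RooKD replicate 3 alone was 0.52, against 0.02 and 0.05 in RooKD replicates 1 and 2. Among the 2557 genes with the fewest reads DESeq2 called 1.56%, and among the 2557 with the most reads 5.16%, while edgeR called 4 and 1. These shares also follow how well a difference can be detected at each level, and do not rank the size of the differences.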

How the data were processed

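The genes, lists and families described here were chosen with earlier results of these data known. Trizol was used for RNA extraction, per the labels' protocols, and the submitters' processing notes name HISAT2, DESeq2 and the build dm6. The sources used here do not name the counting tool or the annotation release, nor how strand and multiply matching reads were handled. The deposited table holds raw read counts per feature, per the file headers, beside a normalized signal (reads divided by a size factor, found from the values), FPKM values, log2 fold changes and p-values from the authors' own comparison, per the file headers. The authors' deposited table has 236 genes up and 108 down at an adjusted p under 0.05. Only the counts were tested here, and FPKM is printed as the authors' group mean.

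The 6 low-complexity features, with 0.0019% to 0.2439% of the reads, entered neither library sizes nor tests. Counts were fitted with edgeR 4.0.16 in R 4.3.3 (TMM, filterByExpr, robust quasi-likelihood F test of group), and with DESeq2 1.42.0 as an alternative, whose missing adjusted p stayed missing. Adjusted p-values are over all features tested, 10305 in edgeR. Normalized reads are TMM-scaled counts, and errors of log2 fold changes are standard errors from the F statistic. For a gene without reads, the fold was taken against 3 reads in a library, and intervals are 95% counting intervals, which cover counting error only. Scripts were tested on simulated counts. Coordinates are those of the deposited table, and 5 symbols that had been turned into dates were restored. Of the genes, 13815 were found in the Ensembl annotation, 13732 with the same start and end.

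Genes were named by a rule: those called by edgeR, with direct neighbours and paralogs; the 12 higher and 12 lower with the largest change among DESeq2-called genes with a mean of at least 50 normalized reads and no overlap between groups; and up to 4 members of each list with the smallest p. Members of domain families and adjacent pairs, Yp3, Yp1, Cyp4g1, Cyp6g1, Bin1, AttA and nod were picked once their values were known. Alternatives were other normalizations and filters, DESeq2, no robust estimation, a block for the replicate number, leave-one-out fits and, added after seeing the data, DESeq2 with each library left out.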

Additional observations from a re-analysis of the deposited data

Results flagged for a closer look

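Reads of the 6 low-complexity features, which entered no comparison, stood far above the scramble level in 1 RooKD library and slightly above its highest value in another. RooKD replicate 3 stood at 2440 CPM, of which the AT-rich feature took 42644 of 42912 reads, and RooKD replicate 2 stood at 51.4 CPM. RooKD replicate 1, at 36.3 CPM, lay within the range of the scramble libraries, which stood at 19.1, 42.5 and 45.1 CPM. In the same library, RooKD replicate 3, the mitochondrial genes had a median log2 difference from the scramble mean of 1.37 and the genes of chromosome 4 one of 0.52. Their relation to the low-complexity reads was not tested.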

How the results depend on the processing

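edgeR's 10 calls (4 up, 6 down) became 343 with DESeq2 (234 up, 109 down) and 25 without the filter on low counts (15 up, 10 down); with single libraries left out they ranged from 0 to 42 (up 0 to 27, down 0 to 15), and the cause was not tested. The counts stayed within 1.5 times under the other normalizations, the CPM filter and fits without robust estimation. DESeq2's counts ranged from 76 to 357 up and from 30 to 224 down when single libraries were left out. Replicate numbers did not pair the libraries, with correlations of same-numbered deviations of 0.24, −0.05 and 0.06, and the fit with the replicate block called 9 genes (4 up, 5 down). Library totals moved the median of all genes to −0.11 from 0.02; list medians from 0.00 to 0.08 then fell below 0, while the lists of lipid synthesis, fat body, digestive and P450 genes stayed above 0 and proteasome, heat shock and autophagy genes below it. The roo ratio of 1.07 became 0.971 without RooKD replicate 3 and 0.967 without scramble replicate 3, in a range of 0.967 to 1.24.

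Genes with small or uneven values changed sign. With library totals, Eaat1 and Mdr65 were at −0.05, nrv2 at −0.07, spas at −0.01, CG32732 at −0.04 and ReepB at −0.05, and with the replicate block CG8641 was at 0.01. With single libraries left out, RpS5b ranged from −2.02 (without RooKD replicate 1) to 5.2, Jon99Fi from −6.31 (without RooKD replicate 1) to 3.80 and aurA from −0.19 (without RooKD replicate 1) to 1.85. Gba1a ranged from −1.74 (without RooKD replicate 1) to 0.17, nrv2 from −0.16 to 0.16, CG8641 from −0.17 to 0.16, Eaat1 and Mdr65 from −0.03 to 0.20, CG32732 from −0.07 to 0.19 and ReepB from −0.02 to 0.16. Depth limits Hr51, CG8160, CG11699, lncRNA:CR45662, MCO3 and Reepl1, which had under 10 reads in each RooKD library.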

Other observations

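Outside the genes, the repeat feature TART_B1, from a retrotransposon of chromosome ends, was called by edgeR as well. It had 101, 80.6 and 60.4 normalized reads in RooKD and 475, 454 and 576 in scramble, and fell by 2.63 ± 0.21 on the log2 scale (edgeR adjusted p = 0.00603; 11 of 10305 features called, or 0.107%).

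Scent and gut peptide genes gave single values. The odorant-binding protein gene Obp56a had 287, 291 and 299 normalized reads in RooKD and 183, 92.9 and 136 in scramble (1.09 ± 0.24, DESeq2 adjusted p = 0.00509; edgeR adjusted p = 0.156), and 16 of 20 odorant-binding genes tested had values above 0, with a median of 0.17. Peptides and regulators of the gut endocrine cells were not called by either test, with 3 of 17 higher by edgeR at an unadjusted p under 0.05, and their summed level was 3280, 4330 and 3710 CPM in RooKD and 3630, 4570 and 4380 CPM in scramble. Of 25 genes of DNA repair and damage checkpoints, the cell death gene hid was the only one called by DESeq2, with 187, 246 and 271 normalized reads in RooKD and 350, 355 and 403 in scramble (−0.66 ± 0.17, adjusted p = 0.0484, or 0.126 without RooKD replicate 1).

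The lists without an account of their own, shown with the others on the plot of list medians, had median log2 fold changes between −0.11 and 0.08. Of 30 glutathione S-transferases, DESeq2 called 1 lower, or 4 without RooKD replicate 1. The 1 gene, GstE1, was lower by DESeq2 (−0.85 ± 0.21, adjusted p = 0.00935), with 967, 1510 and 1528 normalized reads in RooKD and 2430, 2833 and 1953 in scramble. Of 11 glial genes, 7 had values above 0, with a median of 0.03, and DESeq2 called 0 higher and 1 lower. The lower one was loco, a regulator of G proteins (−0.70 ± 0.18, adjusted p = 0.022), with 1363, 1178 and 1162 against 2343, 2200 and 1492.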
